A study of Mus musculus with 4 samples.

Results

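The regions described here are stretches of open chromatin at the start of genes that do not encode a protein, in mouse fibroblasts. They are the regions of the Rela table that the authors assigned to a gene of any type other than protein-coding and whose centre lies at most 2500 bp from the start of that gene. This gave 1186 of 28445 regions, at 1135 genes. By the gene type in the deposited table, 378 regions belonged to 365 long noncoding genes, 165 to 151 antisense genes, 222 to 216 pseudogenes, 250 to 239 small RNA genes and 171 to 164 genes of other types. Of the latter, 160 regions carried the type TEC, a label for loci whose transcript still has to be tested experimentally, and the other 11 were immunoglobulin or T cell receptor segments. The Kindlin-2 table held 214 regions, of 5727, for 206 of the same genes, and 195 of these lay within 2500 bp of the start. At the limit of 2500 bp the last region inside was 2497 bp from its start (Gm26139, a snRNA gene, with signals of 31 and 56 in wild-type and knockout cells) and the next region outside was at 2501 bp.

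Accessibility was measured by ATAC-seq, in which the Tn5 transposase inserts sequencing adapters into open chromatin, in 4 groups of fibroblasts at passages 15 to 20, with 50000 cells per library. Rela wild-type and Rela knockout cells were of the embryo fibroblast line 3T3, and Rela encodes the p65 subunit of the transcription factor NF-kB. Kindlin-2 floxed and Kindlin-2 knockout cells were kidney fibroblasts; Kindlin-2 is an adaptor protein at the cytoplasmic tails of integrins, and its floxed control carries loxP sites around part of the gene. The study set each knockout beside its own control, and its design text names 2 biological replicates of each, but each genotype has 1 column of values, so that the differences below could neither be checked against replicates nor tested. How the knockout lines were derived, and from how many clones, is not given in the sources used here.

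Values are the authors' background-corrected and normalized signal, rounded to whole numbers, and levels are compared only within a table. Nuclear signal summed to 1386832 in Rela wild type, 1458609 in Rela knockout, 134996 in Kindlin-2 floxed and 114217 in Kindlin-2 knockout, and the non-coding promoters held between 3.73% and 4.35% of it. The mitochondrial genome took a further 91.8% and 86.2% of all signal in the Kindlin-2 pair. The read depth behind a median non-coding promoter, worked out from the spacing of the whole numbers, was about 49.8 counts in Rela wild type and 37.9 in Rela knockout, but 13.2 in Kindlin-2 floxed, and it could not be determined for Kindlin-2 knockout. Among 10 fibroblast marker genes, 6 had a region in the Rela table (Col1a2, Pdgfra, Pdgfrb, Thy1, Vim and S100a4) and none in the Kindlin-2 table. None of 4 epithelial and 3 endothelial markers had a region in either, and of 3 leukocyte markers Ptprc had one in both tables and Cd68 in the Rela table. The single region assigned to Rela, 52 bp from its start, measured 21 in wild-type and 27 in knockout cells, and no region was assigned to Fermt2, which encodes Kindlin-2. The part of each gene that was deleted is not given in the sources used here, so the labels could not be checked at the targeted genes.

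Genes without a protein product are of several kinds. Long noncoding RNAs are transcribed and processed like messenger RNAs, and their promoters are often weaker and poorer in CpG dinucleotides than those of protein-coding genes; antisense genes are read from the strand opposite another gene. Small RNA genes include microRNAs, which are cut from longer transcripts and pair with target messenger RNAs through a short seed, the small nuclear RNAs of the spliceosome, and the small nucleolar RNAs that guide the maturation of ribosomal RNA. Processed pseudogenes are copies of messenger RNAs inserted back into the genome, as a rule without the promoter of their source.

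The files give a symbol for 13 of the 1135 genes. A further step matched genes by position to RefSeq genes of GRCm38.p6, the same build, and named 428 (37.7%), of which 225 had the same start and end. For 182 named genes RefSeq gives a promoter sequence, the 250 bases before and 50 bases after the start. The following 8 are shown because a region lay over each of them and because they span the range of results below: Airn and Kcnq1ot1 are imprinted antisense transcripts, Dancr and Snhg5 are host genes of small nucleolar RNAs, Dleu2 is the host of a microRNA cluster, and 1700030C10Rik, 2410018L13Rik and Platr22 were among the most changed. Capitals mark every match, on either strand, to the TATA box TATAAA, the NF-Y element CCAAT, the GC box GGGCGG bound by Sp1, the AP-1 element TGANTCA, the E-box CACGTG, the core CCGGAAG of ETS factors or the kB consensus of NF-kB.
Airn, chr17:12741061-12741360, plus strand: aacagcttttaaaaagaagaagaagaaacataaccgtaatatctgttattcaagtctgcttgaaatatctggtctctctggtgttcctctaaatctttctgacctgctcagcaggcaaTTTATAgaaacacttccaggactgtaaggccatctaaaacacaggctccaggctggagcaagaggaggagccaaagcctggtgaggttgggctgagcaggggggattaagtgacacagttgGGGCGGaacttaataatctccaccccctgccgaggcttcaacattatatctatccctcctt
Kcnq1ot1, chr7:143296498-143296797, minus strand: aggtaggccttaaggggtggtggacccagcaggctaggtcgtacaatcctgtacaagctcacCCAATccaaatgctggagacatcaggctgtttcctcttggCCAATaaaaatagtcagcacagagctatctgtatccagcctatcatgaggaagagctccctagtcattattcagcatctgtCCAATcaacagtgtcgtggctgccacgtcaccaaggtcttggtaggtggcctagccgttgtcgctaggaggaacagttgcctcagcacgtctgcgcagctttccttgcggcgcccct
Dancr, chr5:74092810-74093109, plus strand: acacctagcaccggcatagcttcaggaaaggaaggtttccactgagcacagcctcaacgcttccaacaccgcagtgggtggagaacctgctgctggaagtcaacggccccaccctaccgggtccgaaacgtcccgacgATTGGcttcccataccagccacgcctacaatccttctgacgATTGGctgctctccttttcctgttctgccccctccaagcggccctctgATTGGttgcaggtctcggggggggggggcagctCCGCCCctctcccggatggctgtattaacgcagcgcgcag
Snhg5, chr9:88522848-88523147, minus strand: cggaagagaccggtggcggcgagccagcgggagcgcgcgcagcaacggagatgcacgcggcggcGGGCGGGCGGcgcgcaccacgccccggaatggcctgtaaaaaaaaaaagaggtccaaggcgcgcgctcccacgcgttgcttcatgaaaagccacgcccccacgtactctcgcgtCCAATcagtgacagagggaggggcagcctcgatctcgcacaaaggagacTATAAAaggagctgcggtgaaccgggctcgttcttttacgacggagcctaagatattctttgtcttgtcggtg
Dleu2, chr14:61682324-61682623, minus strand: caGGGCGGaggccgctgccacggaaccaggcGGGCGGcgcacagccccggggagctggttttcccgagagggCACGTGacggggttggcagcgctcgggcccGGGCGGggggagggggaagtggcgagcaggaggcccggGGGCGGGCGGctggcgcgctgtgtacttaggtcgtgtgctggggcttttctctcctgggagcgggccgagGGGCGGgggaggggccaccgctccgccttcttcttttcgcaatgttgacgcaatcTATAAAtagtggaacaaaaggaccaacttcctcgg
1700030C10Rik, chr12:20815730-20816029, minus strand: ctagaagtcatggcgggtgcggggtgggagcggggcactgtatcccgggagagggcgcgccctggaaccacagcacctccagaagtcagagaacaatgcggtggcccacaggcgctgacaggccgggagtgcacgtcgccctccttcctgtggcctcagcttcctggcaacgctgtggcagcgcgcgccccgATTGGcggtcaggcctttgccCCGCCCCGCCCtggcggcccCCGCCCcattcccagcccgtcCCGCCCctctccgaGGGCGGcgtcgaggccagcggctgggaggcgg
2410018L13Rik, chr12:23010194-23010493, minus strand: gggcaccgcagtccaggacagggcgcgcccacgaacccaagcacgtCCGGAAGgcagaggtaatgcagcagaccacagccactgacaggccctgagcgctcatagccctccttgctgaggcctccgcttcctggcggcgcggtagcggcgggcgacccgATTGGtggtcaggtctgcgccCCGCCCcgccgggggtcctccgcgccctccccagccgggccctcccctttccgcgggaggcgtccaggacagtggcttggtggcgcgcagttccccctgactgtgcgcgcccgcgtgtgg
Platr22, chr1:136695961-136696260, plus strand: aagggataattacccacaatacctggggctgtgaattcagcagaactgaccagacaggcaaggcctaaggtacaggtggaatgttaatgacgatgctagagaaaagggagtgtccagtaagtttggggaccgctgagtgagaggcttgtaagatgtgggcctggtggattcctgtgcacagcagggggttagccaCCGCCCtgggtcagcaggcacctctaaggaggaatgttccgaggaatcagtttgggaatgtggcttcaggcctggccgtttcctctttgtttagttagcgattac

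Matches to these motifs are descriptions of letters, not of binding. Airn held 1 TATAAA and 1 GGGCGG, Kcnq1ot1 held 3 CCAAT, and Dleu2 held 6 GGGCGG. None of the 8 held the kB consensus. A pair of these promoters resemble each other: 1700030C10Rik and 2410018L13Rik, on chromosome 12, were identical at 64.4% of aligned positions, against 46.1% to 53.9% for the 27 other pairs among the 8. Over all 182 genes, GGGCGG was present in 33.0% of promoters, CCAAT in 36.8%, TATAAA in 10.4%, TGANTCA in 11.5%, CACGTG in 6.59%, CCGGAAG in 7.14% and the kB consensus in 1.65%. Among all 32851 promoters of the same length in the RefSeq table the shares were 35.7%, 37.4%, 13.6%, 7.81%, 7.15%, 8.86% and 4.51%, and among its 21263 protein-coding promoters they were 46.2%, 38.2%, 12.6%, 6.99%, 7.84%, 11.6% and 4.81%, in the same order.

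For microRNA genes the mature RNA is the product that acts. Of 77 microRNA genes with a region, 48 had a mature sequence in RefSeq, 77 distinct sequences in all. The ones shown belong to genes whose values are given below; they were picked after their values were seen, apart from Mir5710 and Mir6387, and are neither a complete list of the microRNAs past 2-fold nor of those within it. Capitals mark the seed, bases 2 to 8.
mmu-miR-5710: uCUUGGGAcauaguguaaggca
mmu-miR-6387: uGGAAUGGcuucccuuguguau
mmu-miR-100-5p: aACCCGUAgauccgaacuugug
mmu-miR-125b-5p: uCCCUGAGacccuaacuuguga
mmu-miR-211-5p: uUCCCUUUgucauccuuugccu
mmu-miR-501-5p: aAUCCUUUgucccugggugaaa
mmu-miR-501-3p: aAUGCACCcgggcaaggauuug
mmu-miR-7041-3p: uGGUUCUCuucuucccucag
mmu-miR-146a-5p: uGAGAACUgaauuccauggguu
mmu-miR-29a-3p: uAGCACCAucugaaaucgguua
mmu-miR-30a-5p: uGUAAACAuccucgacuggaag
mmu-miR-206-3p: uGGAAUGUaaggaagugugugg
mmu-miR-210-3p: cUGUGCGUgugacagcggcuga

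All of these seeds differ from each other. Over the 48 genes, 3 seeds occurred in more than 1 gene: UUUUUGC in Mir129-1 and Mir129-2, GUCAGGC in Mir344c and Mir344d-3, and GGGCUGA in Mir7028 and Mir7662.

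In the Rela pair, accessibility differed at many non-coding promoters, in both directions and about as often as anywhere else in the table. The median signal was 34 in wild-type cells and 36 in knockout. Of 1182 non-coding promoter regions with a mean signal of at least 1, 280 were past 2-fold upward in the knockout and 255 downward, together 45.3%, where 43.3% of all 28332 regions passed that limit (22.4% higher and 21% lower). Among 6879 promoter regions of protein-coding genes the share was 22.8%. Among 18207 regions with no assigned gene it was 51.0%. The non-coding promoters thus stood near the table as a whole and above the protein-coding promoters, a description with no test. The 95% interval of the ratio, for counting error alone, lay wholly beyond 2-fold at 166 higher and 107 lower non-coding promoters (23.1%), and at 8.05% of protein-coding ones.

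The classes had similar spreads. The share past 2-fold was 40.5% at long noncoding genes (78 higher, 75 lower), 49.7% at antisense genes (43 higher, 38 lower), 50.9% at pseudogenes (57 higher, 55 lower), 45.6% at small RNA genes (57 higher, 57 lower) and 43.9% at the other types (45 higher, 30 lower). The median log2 ratio was -0.07, 0.23, 0.00, 0.00 and -0.06. The value of 0.23 at antisense genes became 0.07 when ratios were centred on each chromosome. Within the long noncoding class, processed transcripts had 28.6% of 70 regions past 2-fold and lincRNAs 43.5% of 285.

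**Figure D1:**
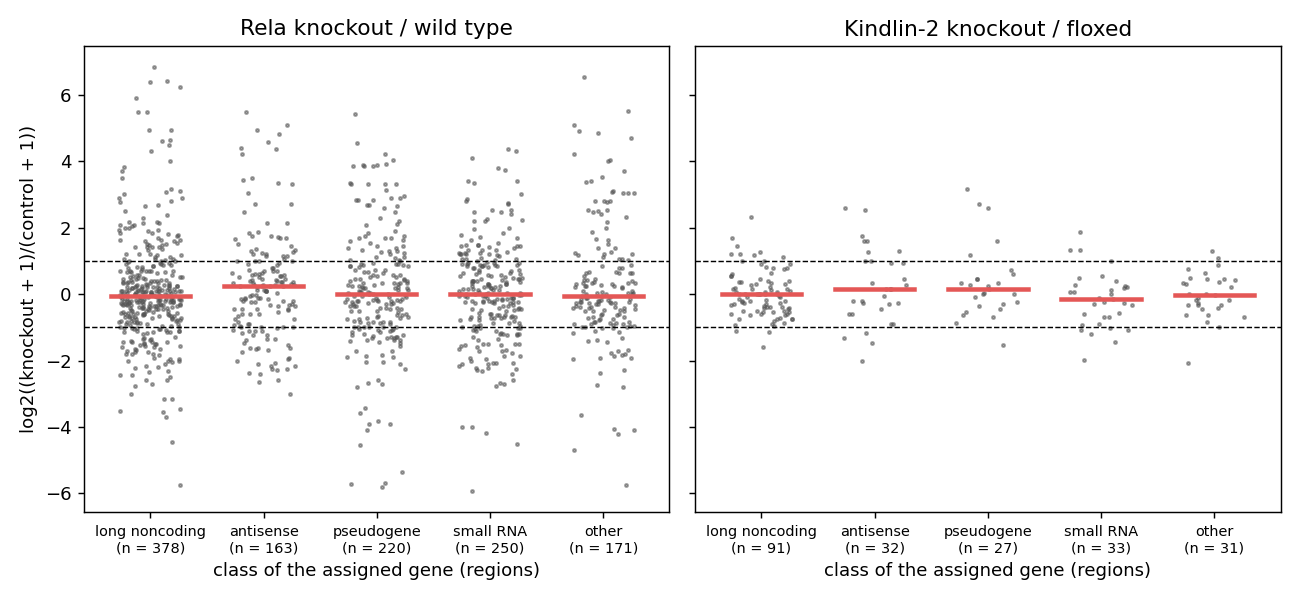
Each point is a region, placed by the class of its gene and by log2((knockout + 1)/(control + 1)), for the Rela pair on the left and the Kindlin-2 pair on the right; red bars are medians and dashed lines the 2-fold limits. Medians lie between -0.07 and 0.23 in the Rela pair, where points reach 6.83, while the highest value in the Kindlin-2 pair is 3.17.

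How strongly a promoter was open, and how close the region lay to the start, went with the share past 2-fold. Non-coding promoters with a mean signal under 20 passed 2-fold in 60.1% of 268 regions, those of 20 to 40 in 56.2% of 390, those of 40 to 80 in 36.0% of 317 and those of 80 or more in 19.8% of 207. Protein-coding promoters in the same ranges had 46.4%, 33.4%, 20.3% and 9.97%, and regions with no assigned gene 62.9%, 56.3%, 42.2% and 25.2%. At equal signal, non-coding promoters had a higher share than the protein-coding ones in each range and a lower one than the regions with no assigned gene, by the least in the range of 20 to 40. By distance, 38.1% of 257 regions under 250 bp from the start were past 2-fold, 40.2% of 368 at 250 to 1000 bp and 51.9% of 557 beyond. Only 21.7% of the non-coding regions were within 250 bp of their start, against 67.3% of the protein-coding ones, and long noncoding genes within 250 bp had a share of 29.9%, where protein-coding genes had 20.3%.

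**Figure D2:**
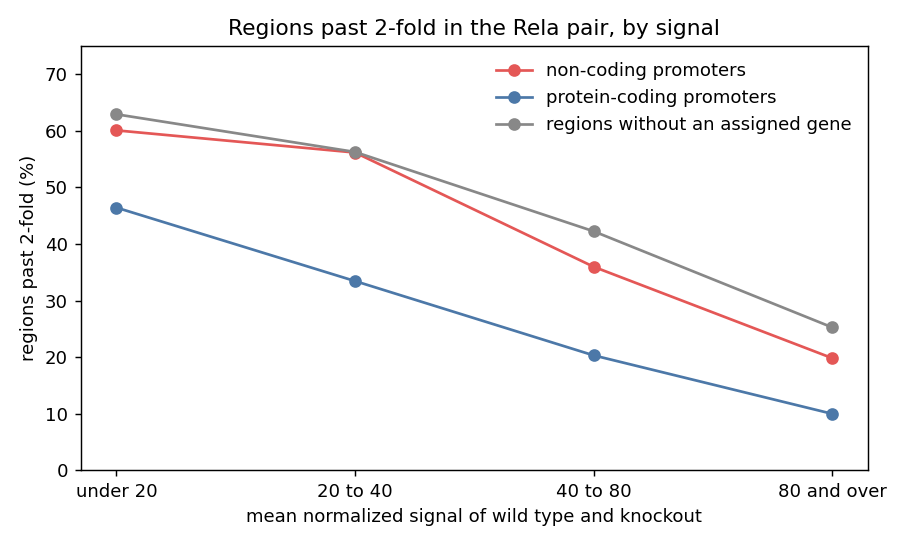
The share of regions past 2-fold between Rela knockout and wild type (y axis, percent) is drawn against the mean normalized signal in 4 ranges (x axis), for non-coding promoters, protein-coding promoters and regions with no assigned gene. Non-coding promoters go from 60.1% in the weakest range to 19.8% in the strongest and lie above protein-coding promoters in each.

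Well-known non-coding genes were listed in 4 groups of 89 genes in all, and 14 of them were found by name with a promoter region in the Rela table. Of the 1135 genes, 701 kept only an Ensembl number, so a listed gene among those would have been missed. Of their 15 regions, 0 passed 2-fold upward in the knockout and 2 downward (median log2 ratio -0.35). Over all regions of the Rela pair, 22.4% passed upward and 21% downward. Airn is the imprinted transcript that silences the paternal Igf2r gene. Its region over the start, 6 bp away, measured 42 in wild-type and 9 in knockout cells, 4.67-fold lower (interval 2.41 to 11.2). Mirt1, a lincRNA named for its induction after myocardial infarction, had 38 and 9, 4.22-fold lower (2.20 to 10.3). Among the other imprinted transcripts of the list, only Peg13 and Kcnq1ot1 were found by name with a region. The signal of each was lower in the knockout by less than 2-fold. Peg13, at an imprinted locus of chromosome 15, had 38 in wild-type cells and 20 in knockout (1.90-fold, 1.14 to 3.34), and Kcnq1ot1, which silences a domain of chromosome 7, had 14 and 8 (1.75-fold, 0.76 to 4.72, an interval that includes equal levels).

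The host genes of small nucleolar RNAs, which belong to the constantly transcribed genes of growing cells, were all within 2-fold. Of 24 listed, 5 were found by name with a region. Dancr had 67 in wild-type cells and 66 in knockout, 2410006H16Rik 54 and 58, Snhg6 40 and 47, Snhg15 39 and 27, and Snhg5 45 and 73. The Snhg5 ratio of 1.62 had an interval of 1.15 to 2.29, which leaves out equal levels and includes 2-fold. Among microRNA hosts, Dleu2 had 33 and 45, and the 2 regions of Dnm3os, which runs antisense to Dnm3, had 26 and 21 near the start and 23 and 15 at 1698 bp. Firre, an X-linked RNA that organises chromatin, had 32 and 59 (1.84-fold higher, 1.23 to 2.74). Rn7sk, whose RNA holds the elongation factor P-TEFb inactive, had 111 and 87, and Oip5os1 26 and 16. None of 21 antisense transcripts of developmental genes, such as those of the Hox clusters, was found by name. Genes that kept only an Ensembl number could not be searched in this way.

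**Figure D3:**
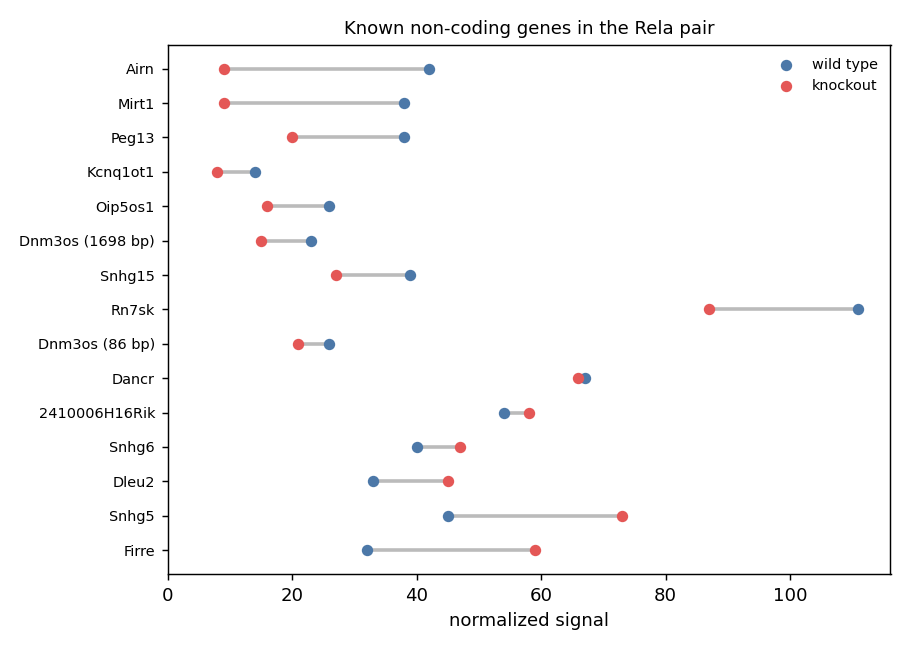
Normalized signal (x axis) of the 15 promoter regions of listed non-coding genes in Rela wild type and knockout, joined by a line and ordered by the log2 ratio. Airn and Mirt1, at 42 and 38 in wild-type cells and 9 in knockout, stand at one end, and Firre, at 32 and 59, at the other.

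The largest differences were at little-studied transcripts. Among regions of at least median signal (35.5), 1700030C10Rik, 25 bp from the start, went from 0 to 113 in the knockout, at least 55.1-fold higher against a floor of 3 counts in wild type, with a lower interval limit of 44.1 once the counting error of the knockout is included. 2410018L13Rik, with the related promoter shown above, had 0 and 75 (at least 36.6-fold, lower limit 29.1). The promoter sequences of this pair were identical at 64.4% of aligned positions. Whether reads could be assigned to each copy with certainty was not tested. How the authors counted reads of related copies is not given in the sources used here. In the stretch of chromosome 12 that holds both, taken with 1 Mb on either side after these values were seen, all 4 non-coding promoters were higher in the knockout, the other 2 with 4 against 35 and 5 against 51. Of all 17 regions there, these 4 included, 7 were past 2-fold higher and none lower. In wild type 3 were at 0, and 2 of those are the pair around which the stretch was drawn. The whole Rela pair had 22.4% of regions past 2-fold higher and 21% lower.

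Other lincRNAs also went from little or no signal to strong signal. Gm39149 had 0 in wild-type cells and 83 in knockout (at least 40.5-fold, lower limit 32.1), Gm39185 had 4 and 154 (38.5-fold, 16.9 to 104), and ENSMUSG00000110503 had 7 and 199 (28.4-fold, 15.6 to 61.7). All of these lie on chromosome 8, where the median log2 ratio of all regions was 0.61. 1700016L21Rik, an antisense gene on chromosome 1, had 3 and 82 (27.3-fold, 11.3 to 112). In the other direction, ENSMUSG00000085721, a lincRNA, had 81 in wild-type cells and 6 in knockout (13.5-fold lower, 6.37 to 39.7). Lexis1, a long noncoding RNA gene next to the cholesterol exporter gene Abca1 that is known from liver X receptor signalling, had 116 and 12 at 1724 bp from its start (9.67-fold lower, 5.36 to 18). The region of Platr22, over the promoter shown above, had 155 and 43 (3.60-fold lower, 2.63 to 5.12).

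Neighbouring regions moved with some of these. Around 1700016L21Rik the median log2 ratio of the 20 nearest regions was 1.29, and around Platr22 it was -0.76. With each region's log2 ratio centred on that median, 34 of the 38 named regions past 2-fold in the Rela pair were still past it. Many of the 38 were named for their large ratios, so the count says little about other regions. This centring was chosen after the data were seen.

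At microRNA genes, 19 of 84 regions passed 2-fold upward in the Rela knockout and 19 downward, together 45.2%, near the 43.3% of all regions. Among those with a mature sequence Mir501, on the X chromosome, had the largest ratio, from 1 to 39 (39-fold higher), with an interval of 9.67 to 2304. Mir6387 had 15 in wild-type cells and 72 in knockout at 64 bp from its start (4.80-fold higher, 2.95 to 8.10), and Mir211, a microRNA within the melanocyte gene Trpm1, had 5 and 34 (6.8-fold, 3.14 to 19). Mir100 and Mir125b-2 belong to related microRNA clusters on different chromosomes, and their regions differed in opposite directions: 27 and 5 at Mir100 (5.40-fold lower, 2.27 to 18.7) and 67 and 143 at Mir125b-2 (2.13-fold higher, 1.65 to 2.79), at 1553 and 2293 bp from their starts. The 20 regions around Mir125b-2 had a median log2 ratio of 1.01. Lower in the knockout were also Mir5710 (59 and 13, 4.54-fold, 2.50 to 8.42) and Mir7041 (33 and 6, 5.50-fold, 2.46 to 16.5). Regions of several broadly studied microRNAs differed by less than 2-fold. Mir146 had 22 and 20 at 868 bp from its start (1.10-fold, 0.61 to 2.00). It encodes miR-146a, a microRNA induced by NF-kB in immune cells. Distances are to the start of the annotated microRNA gene, and the starts of the longer transcripts were not examined. Mir29a had 59 and 51, Mir30a 82 and 106, and Mir206 79 and 88. Mir210, the microRNA induced by low oxygen, had 94 and 60 (1.57-fold lower, 1.16 to 2.16).

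The strongest non-coding promoters included genes of spliceosomal RNAs. These come in near-identical copies, so the share of reads that belongs to each copy is uncertain. In the Rela pair, the 9 snRNA genes that have the length of the U2 gene Rnu2-10, 191 bp, had signals of 14 to 396 in wild type (median 166) and 50 to 464 in knockout (median 263); 3 of their regions were past 2-fold higher and 1 past 2-fold lower. Rnu2-10 itself had 220 and 263, and Gm24497, among the strongest of all non-coding promoters, 396 and 341. Gm25939 had 165 and 464 (2.81-fold higher, 2.40 to 3.29). The U5 gene Rnu5g had 249 and 216, the U1 gene Rnu1a1 131 and 142. The 4 genes of U3, the snoRNA needed for cutting the ribosomal RNA precursor, had 100 to 189 in wild-type cells and 90 to 238 in knockout, none past 2-fold. Shorter snRNA genes, of at most 110 bp, a size that includes many U6 copies, were weaker, with a median of 31 in wild type. Past 2-fold, 9 of their 35 regions were higher and 11 lower. Over all regions of the Rela pair, 22.4% were past 2-fold higher and 21% lower.

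In the Kindlin-2 pair several of these structural genes were past 2-fold lower in the knockout and others were not. The U3 gene Rnu3b3 had 117 in floxed and 29 in knockout cells (4.03-fold lower, 2.62 to 6.38), Rnu3b1 had 67 and 24 (2.79-fold, 1.67 to 4.74), and Rnu3b4 44 and 23 (1.91-fold, 1.07 to 3.39). Rnu2-10 had 67 and 31 (2.16-fold, 1.34 to 3.49), Rnu5g 29 and 12 (2.42-fold, 1.12 to 5.31) and Gm24497 83 and 39 (2.13-fold, 1.40 to 3.27). Other copies had closer values: Gm25939 had 50 and 55, Gm24950 27 and 28, and Gm22973 86 and 97. In all, 4 of 17 snRNA regions and 2 of 7 snoRNA regions were past 2-fold lower, and 1 and 0 past 2-fold higher, where 9.27% of all regions of that table were past 2-fold lower and 16.2% higher. Any lower signal, however small the difference, was seen at 10 of the 17 and 5 of the 7. Under quantile or loess scaling 1 of the 17 snRNA regions was past 2-fold lower. Strong regions in general were lower in this knockout: with a mean signal of 40 or more, 0 of 304 protein-coding promoters passed 2-fold upward and 44 downward (median log2 ratio -0.46), and of 26 non-coding promoters 0 and 6 (-0.52). In the Rela pair the same U3 genes had 139 and 238 at Rnu3b3, 112 and 140 at Rnu3b1, and 189 and 118 at Rnu3b4.

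**Figure D4:**
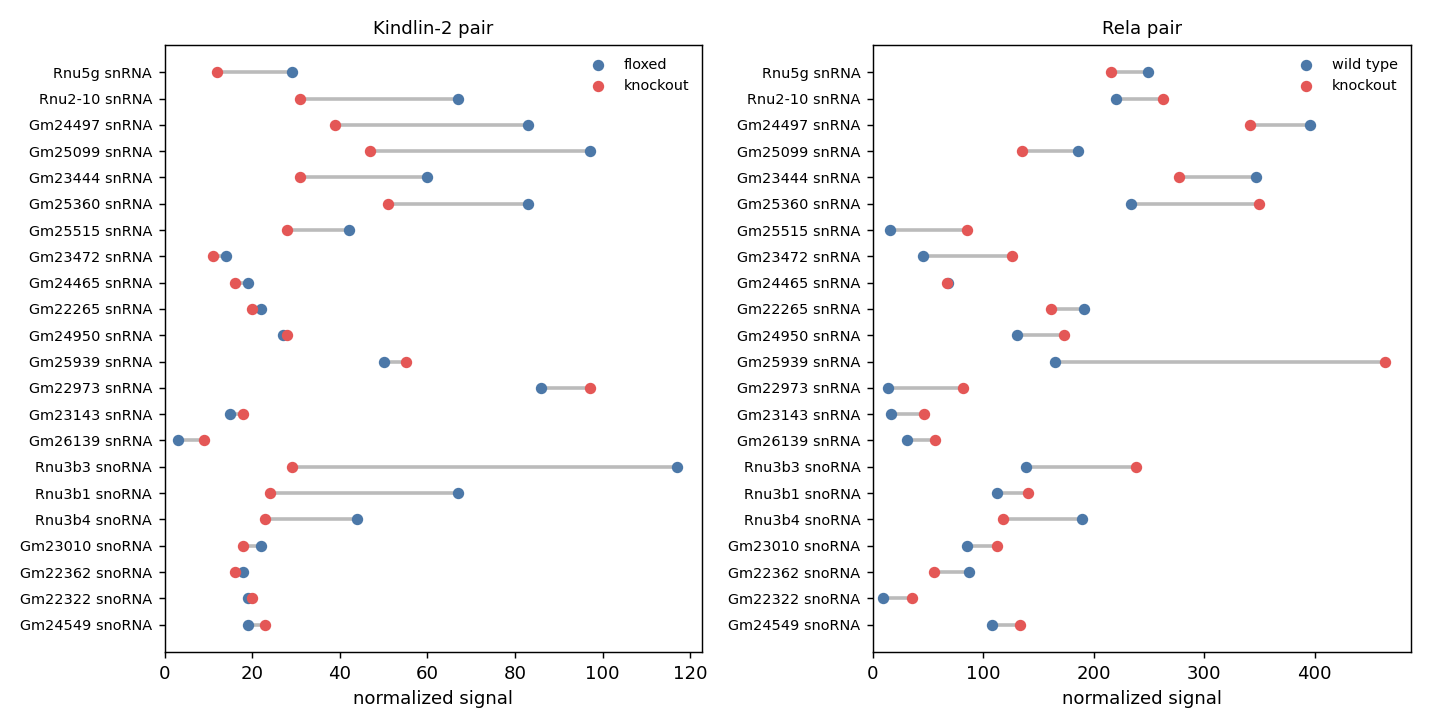
Normalized signal (x axis) in control and knockout for 22 snRNA and snoRNA genes with a RefSeq name and a region in both tables, Kindlin-2 pair on the left and Rela pair on the right, ordered by gene type and by the Kindlin-2 log2 ratio. In the Kindlin-2 pair Rnu3b3 goes from 117 to 29, while Gm22973 has 86 and 97; the Rela pair has its own scale, on which Gm25939 goes from 165 to 464.

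Pseudogenes had the highest share past 2-fold of the named classes, 50.9%, and were farthest from their assigned starts, with 10.5% of regions within 250 bp. Processed pseudogenes made up 180 of the 220 regions. Of these 180, 46 were past 2-fold higher and 47 lower, together 51.7%, where 43.3% of all regions passed. The only region in this class with a mean over 250, at an unprocessed pseudogene on chromosome 4, had 182 in wild-type cells and 328 in knockout. Lamr1-ps1, a copy of the laminin receptor gene, had 119 and 47, and Zfp862-ps 55 and 22. Among TEC loci, 40 of 160 regions were past 2-fold higher and 27 past 2-fold lower, together 41.9%, near the 43.3% of all regions. The strongest non-coding promoter of the table was a TEC locus on chromosome 8 with 456 in wild-type cells and 726 in knockout (1.59-fold, 1.43 to 1.77). Its log2 ratio of 0.67 was near the median of 0.61 over all regions of that chromosome.

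Some of the regions may serve a protein-coding gene too. A start of a protein-coding RefSeq gene lay within 2500 bp of the centre of 73 of the 1182 regions, and 28.8% of these were past 2-fold, 10 higher and 11 lower, against 46.4% of the other 1109. Their median signal was 52 in wild-type cells and 58 in knockout, and that of the others 33 and 35. One of the largest differences belongs here: ENSMUSG00000106801, a TEC locus, had 0 in wild-type cells and 91 in knockout (at least 44.4-fold higher against the floor, lower interval limit 35.5), and its region lay 34 bp from the start of the protein-coding gene St7. Signal at such a region cannot be divided between the transcripts.

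The direction of change in the Rela pair was also described by CpG content. For 103 of the 182 genes with a promoter sequence a region overlapped the sequence. A promoter was called CpG-rich when GC was at least 50% and the observed over expected CpG ratio at least 0.6, which 37 met. Of these, 5 passed 2-fold upward in the knockout and 1 downward, with a median signal of 51 in wild-type cells and 57 in knockout. Of the 66 CpG-poor promoters, 4 were higher and 16 lower, with medians of 54 and 47. The share past 2-fold was 16.2% of the CpG-rich and 30.3% of the CpG-poor promoters. Over all regions of the Rela pair it was 43.3% (22.4% higher and 21% lower). The median log2 ratio was 0.09 in the first group and -0.22 in the second. At protein-coding promoters with a region over the sequence it was -0.03 for 4982 CpG-rich ones (391 higher, 455 lower) and -0.09 for 1425 CpG-poor ones (177 higher, 174 lower). The CpG limits were set after the values were known. Airn, with an observed over expected ratio of 0.19, and Platr22, with 0.31, are among the CpG-poor and lower ones, and 1700030C10Rik, with 0.73, among the CpG-rich and higher ones. TGANTCA was found in 14 of the 66 CpG-poor promoters and in 0 of the 37 CpG-rich ones. By direction, it was in 4 of the 17 promoters past 2-fold lower, 0 of the 9 past 2-fold higher and 10 of the 77 within 2-fold. A link between this element and the direction was not tested.

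In the Kindlin-2 pair the same genes were past 2-fold about as often as in the Rela pair. Over 205 genes, by the region nearest to the start, 20.5% were past it, and 22.4% in the Rela pair. Floxed and knockout cells had the same median signal of 18. Of 214 regions, 30 passed 2-fold upward in the knockout and 16 downward, 21.5%, where 25.4% of all 5727 regions passed (16.2% higher and 9.27% lower) and 19.2% of 2423 protein-coding promoters did. After quantile scaling the split was 18 higher and 20 lower. The interval for counting error lay wholly beyond 2-fold at 3 regions, 2 higher and 1 lower. Antisense genes had 9 higher and 4 lower of 32 regions, 40.6%, long noncoding genes 10 and 3 of 91, 14.3%, and pseudogenes 5 and 1 of 27. After quantile scaling the antisense count became 5 and 5, and the long noncoding count turned to 5 higher and 8 lower (6 and 4 after loess scaling, 8 and 9 after centring on neighbouring regions). ENSMUSG00000085448, an antisense gene on chromosome 2, had 5 in floxed and 34 in knockout cells (6.8-fold higher, 2.23 to 24.2). The lincRNAs A230028O05Rik, with 44 and 20 (2.20-fold lower, 1.21 to 4.02), and 1700096K18Rik, with 45 and 20 (2.25-fold, 1.25 to 4.13), were among the lowest. Of the listed genes, Dancr had 19 and 13 and Oip5os1 3 and 8.

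The same genes were then set side by side in both tables. The 206 genes seen in both tables were the stronger ones: in the Rela table their median mean signal was 73.5, against 30.5 for the rest, and 23% were past 2-fold in the Rela pair against 50.2% of the rest. Long noncoding genes were found again in the Kindlin-2 table in 24.4% of cases and pseudogenes in 12%. Across 205 genes, taking the region nearest to the start, control levels in the pair of tables had a Spearman correlation of 0.45, while the log2 ratios had a Pearson correlation of 0.05; these points are genes, which are no replicates, and the tables share no sample. In 11 genes some region was past 2-fold in both tables, and in 10 the nearest ones were, 5 higher in both knockouts, 0 lower in both and 5 in opposite directions. These 10 are 4.88% of the 205 genes, where 3.46% of all 2545 genes with a region in both tables and 2.75% of 2142 protein-coding genes with promoter regions in both were past 2-fold in both, a description with no test. In 190 of the 205 genes a region of the Rela table overlapped a region of the Kindlin-2 table. ENSMUSG00000072573, among those higher in both knockouts, is not of this kind. Its region lay 4023 bp from the start in the Kindlin-2 table and 124 bp in the Rela table. Mir6387 was higher in both knockouts, with 7 in floxed and 28 in knockout cells (4-fold, 1.57 to 13.6) beside the 15 and 72 of the Rela pair. Platr22 went opposite ways, from 12 to 29 in the Kindlin-2 pair (2.42-fold higher, 1.09 to 5.69) and from 155 to 43 in the Rela pair. Gm16184, a processed pseudogene, had 22 and 7 in the Kindlin-2 pair and 55 and 136 in the Rela pair.

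By chromosome, non-coding promoters followed the other regions of the Rela table. On chromosome 8, 44 of 99 passed 2-fold upward in the knockout and 12 downward, with a median log2 ratio of 0.81 where all regions of the chromosome had 0.61. On chromosome 13, 3 of 34 were higher and 20 lower (median -1.06, all regions -0.79), on chromosome 10, 2 of 35 and 14 (-0.78 and -0.58), and on chromosome 17, which holds Airn, 4 of 50 and 18 (-0.63 and -0.56). Chromosome 12, with 10 of 24 higher, had 0.82 where all its regions had 0.19. With every ratio centred on its chromosome's median, 267 non-coding promoters were higher and 238 lower, and Airn had a log2 ratio of -1.54.

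**Figure D5:**
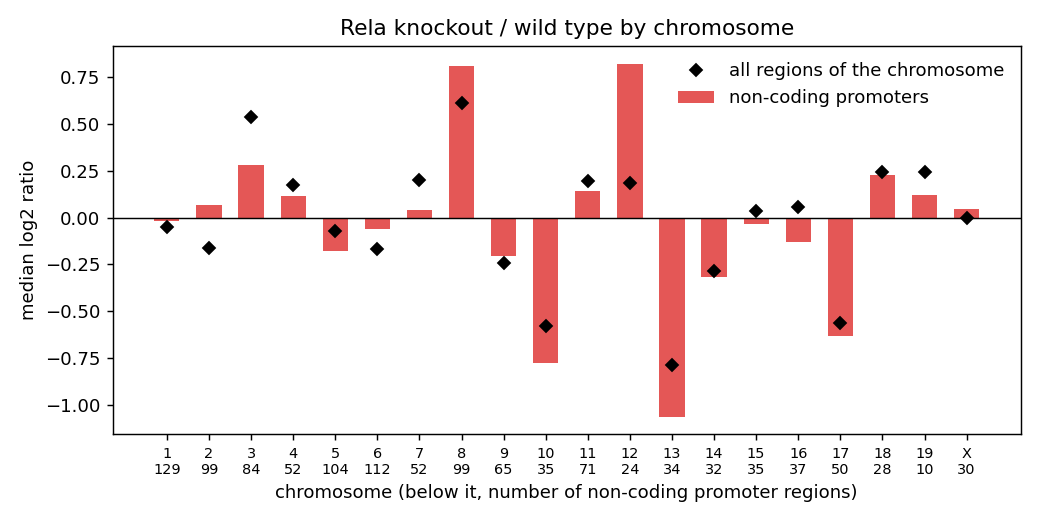
Median log2 ratio of Rela knockout over wild type (y axis) for the non-coding promoters of each chromosome (bars; numbers of regions under the names) and for all regions of the chromosome (diamonds). Bars and diamonds are both below -0.5 on chromosomes 10, 13 and 17 and above 0.5 on chromosome 8.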

How the data were processed

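ATAC-seq of 4 fibroblast genotypes was deposited as 1 table per knockout, with 1 column per genotype. The submitters' processing notes list mm10 and, with no role or order given, the aligner STAR 2.4.2a, the peak caller MACS2, Picard 1.136, Trimmomatic 0.33, DESeq2, FastQC, bedtools and deepTools. How reads were shifted for Tn5, how duplicates and reads of repeated sequence were treated, and how replicates were combined is not given in the sources used here. Signal values are a score: per the labels' names for the tables, the authors corrected the signal for background and normalized it by the DESeq method, and the values are whole numbers. They are not read counts. The authors also deposited each region's distance to the start of its gene and the fraction of the region that overlaps the gene body. The tables do not state whether region starts count from 0 or 1; promoter and microRNA positions are RefSeq's, on GRCm38.p6, and count from 1.

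The change of a region is log2((knockout + 1)/(control + 1)), a scale that understates changes of weak regions. Regions with a mean of at least 1 entered, and a log2 ratio of at least 1 in size counted as past 2-fold. With 1 column per genotype there is no test and no p-value. A count times a fixed factor, rounded, leaves some whole values rare; the factor explaining most of this was 0.683 for Rela wild type (97.3% of deviance), 0.949 for Rela knockout (88.5%) and 1.361 for Kindlin-2 floxed (95.5%). None explained over 33.0% for Kindlin-2 knockout, which was given a factor of 1 after the fits were seen. Implied counts gave exact (Clopper-Pearson) 95% intervals of ratios. A signal of 0 was set to a floor of 3 counts per library. Intervals and bounds cover counting error only, neither background correction nor replicates. The steps were tested on simulated data.

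Genes were named by position where they shared at least 90% of their joint span with a non-coding RefSeq gene (387 genes) or, for long noncoding and antisense genes, where a RefSeq lncRNA started within 100 bp on the same strand (41); 701 genes kept their Ensembl number. Starts of protein-coding genes came from the RefSeq promoter table (17492 genes), from the strand in the deposited tables (1381) or, without a strand, from both gene ends (3027). Named genes were those of the listed non-coding genes with a region; the 10 highest and 10 lowest log2 ratios per table among regions of at least median signal, 1 region per gene; the 10 strongest; the highest and lowest of each class; and genes past 2-fold in both tables. Genes named outside this rule (microRNAs other than Mir5710, Mir6387 and Mir3967, the remaining Rnu genes and snRNA copies, Lamr1-ps1, Zfp862-ps and Gm26139) were chosen after their values were seen. The regions, lists and rules were chosen with earlier results of these data known. Alternatives were other pseudocounts, filters, scalings and distances. Python 3.11.15, pandas 2.3.3, numpy 2.4.6, scipy 1.17.1, statsmodels 0.14.6 and matplotlib 3.10.9 were used.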

Additional observations from a re-analysis of the deposited data

How the results depend on the processing

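Counts of regions past 2-fold stayed within 1.5 times of the value given under all alternatives but these: with a distance of at most 1000 bp, which leaves 626 and 142 regions, 247 regions were past 2-fold in the Rela pair and 30 in the Kindlin-2 pair, and with a pseudocount of 5, 28 were in the Kindlin-2 pair. The Rela count ranged from 454 (pseudocount 5) to 538 (no filter) otherwise, and the Kindlin-2 count from 31 (mean signal of at least 10) to 47 (centring on neighbouring regions). Of calls in the Kindlin-2 pair, 65.2% were higher, but 47.4% after quantile scaling, 51.6% with a mean signal of at least 10 and 51.1% with neighbour centring. The median log2 ratio of 0.00 stayed between -0.09 and 0.03 in the Rela pair and between -0.09 and 0.01 in the Kindlin-2 pair. Of 28 named regions past 2-fold in the Kindlin-2 pair, 15 were past it after quantile scaling and 17 after loess scaling. With a pseudocount of 5, 17 were, and after centring on each chromosome 24. Of 38 in the Rela pair all 38 were under each of these settings. Many named regions were picked for large ratios, so these counts say little about other regions. The sign turned for the Kindlin-2 regions of Oip5os1 (-0.16 after loess scaling) and ENSMUSG00000054556 (-0.17 after quantile and -0.86 after loess scaling), both with a floxed signal of at most 3; the cause was not tested. No paired analysis was possible because each genotype has 1 column, and no replicate could be left out for the same reason. Depth limits the Kindlin-2 pair most, with about 13.2 counts behind a median non-coding promoter in floxed cells.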

Other observations

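Among segments of antigen receptor genes, which are read in lymphocytes, 11 regions of immunoglobulin and T cell receptor genes, pseudogenes left out, were among the non-coding promoters of the Rela table. Trbc2 measured 21 in wild-type and 121 in knockout cells, Ighv1-58 had 0 and 33, and Trac had 214 and 117. The leukocyte markers Ptprc and Cd68 summed to 70 in wild type and 45 in knockout, and Cd3e had no region.

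Of 51 genes with at least 2 regions near the start in the Rela table, 35 had regions that differed in the same direction, 8 had all regions past 2-fold in the same direction, and 3 had a region past 2-fold higher and another past 2-fold lower. Bach2os is of the last kind, with 51 in wild type and 23 in knockout at 1489 bp from the start and 10 and 22 at 2428 bp.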
